A study of Mus musculus with 8 samples.

Results

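The Platr transcripts are a set of mostly noncoding RNAs of mouse embryonic stem cells, named for being pluripotency-associated. The members were every symbol made of Platr and a number in the deposited count table, together with Lncenc1, and there were 29 of them among 55292 features. Read counts per gene came from poly(A)-selected RNA of E14 cells, an embryonic stem cell line of strain 129/Ola that was kept in serum with leukaemia inhibitory factor. The 3 groups used were lncSmad7-/- cells labelled as transfected with Smad7 for 24 h (below, labelled KO+Smad7), untreated lncSmad7-/- cells (KO) and untreated wild-type E14 cells (WT), each with 2 libraries. Both KO+Smad7 and KO groups carry the deletion of lncSmad7, a long noncoding RNA, and the sources used here do not say whether they come from 1 clone. No transfected control of the KO cells was used here, so transfection itself and Smad7 cannot be told apart in the labelled KO+Smad7 libraries. The series calls the replicates biological without saying whether cultures were separate, so the p-values below reflect only how far these libraries differ, and part of that may be technical.

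Platr RNAs were grouped because their levels are high in embryonic stem cells and fall on differentiation, and for most of them no molecular role is settled. Long noncoding RNAs of this kind are spliced and polyadenylated like messenger RNAs, are often made at low levels, and may act in the nucleus, in the cytoplasm or through the act of their transcription near a neighbouring gene. Lncenc1, also listed as Platr18 in RefSeq, has a described role in keeping glycolysis active in naive mouse embryonic stem cells.

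The lncSmad7 feature had 167 and 207 reads in the labelled KO+Smad7 libraries, 140 and 105 in KO and 237 and 221 in WT. In CPM (counts scaled to the effective library size) it stood at 11 ± 0.3 in labelled KO+Smad7, 6.33 ± 1.1 in KO and 13.2 ± 1.1 in WT (SD, n = 2 each). Its level was thus 1.73-fold higher in labelled KO+Smad7 than in KO, and 0.837 times that of WT. KO held 0.482 times the WT level. Where the deletion lies within that feature is not stated in the sources at hand. Smad7, which encodes an inhibitor of TGF-beta signalling, was 1.33-fold higher in labelled KO+Smad7 than in KO libraries. Smad7 stood at 96.6 ± 3.9 CPM in labelled KO+Smad7, 72.5 ± 4.2 in KO and 97.6 ± 0.048 in WT (SD, n = 2 each). The defining stem cell markers Pou5f1, Sox2, Nanog, Esrrb, Zfp42 and Tdgf1 were abundant in every library, with summed levels of 3640 and 3620 CPM in labelled KO+Smad7, 5110 and 5120 in KO, and 3720 and 3710 in WT. The sums of labelled KO+Smad7 and WT lay close while single markers differed in both directions. Tdgf1 averaged 1080 CPM in labelled KO+Smad7 and 577 in WT, Pou5f1 averaged 577 and 950, and Nanog 359 and 495. Libraries held 13392941 to 20209760 counts, the fewest in labelled KO+Smad7, where mitochondrial transcripts took 2.48% and 2.33% of counts against 1.37% to 1.58% in the other 4 libraries. Ribosomal protein genes took 3.43% and 3.38% in labelled KO+Smad7 against 4.5% to 5.20% in the others, and lincRNAs 0.518% and 0.642% against 0.271% to 0.311%. Genes with a count numbered 26358 and 27359 in labelled KO+Smad7, against 24446 to 24849 in the other libraries. The 7 primitive endoderm markers summed to 105 and 109 CPM in labelled KO+Smad7, 122 and 114 in KO, and 274 and 266 in WT, most of it Lama1. Lama1 averaged 94.3 CPM in labelled KO+Smad7, 111 in KO and 170 in WT, while each of the other 6 was higher in labelled KO+Smad7 than in KO by its mean and lowest in KO. Among these, Pdgfra averaged 3.96, 1.27 and 16.5 CPM in labelled KO+Smad7, KO and WT, Cubn 1.04, 0.544 and 31.9, and Gata6 1.72, 0.233 and 10.5. The Y-linked gene Ddx3y had 40 and 39 reads in labelled KO+Smad7, 23 and 9 in KO, and 710 and 748 in WT. KO and WT libraries thus differed in Y-linked transcripts too, and whatever else separates these cells cannot be told apart from loss of lncSmad7 in the values below. In bulk RNA, fewer cells of a type and less RNA per cell also cannot be told apart. The part of depth, mitochondrial, ribosomal protein and lincRNA shares, gene numbers and endoderm markers in the members' values was not tested.

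Of the 29 transcripts, 20 passed the filter on low counts and entered the test, and 9 did not. By edgeR's quasi-likelihood test at an adjusted p under 0.05, 14 of the 20 were called in KO against WT, 5 higher and 9 lower. The 5 include Platr32, which passed the filter only through its labelled KO+Smad7 reads. It is also among the 8 higher in labelled KO+Smad7 than in WT. Among all 17342 genes tested 67.7% were called, 34.5% higher and 33.3% lower, so the members' count lay near the background. Against KO, the labelled KO+Smad7 libraries had 13 of the 20 called, 9 higher and 4 lower, against 74.6% of all genes, 37.8% higher and 36.8% lower. Against WT, they had 15 of the 20 called, 8 higher and 7 lower, against 81.9% of all genes, 43.1% higher and 38.8% lower. Scaling by library size alone gave 8 higher and 9 lower in KO against WT, and 11 higher and 5 lower in labelled KO+Smad7 against WT. In labelled KO+Smad7 against KO it gave 12 higher and 4 lower. That scaling moved the median log2 fold of all genes to 0.17 in KO against WT, 0.29 in labelled KO+Smad7 against KO and 0.48 in labelled KO+Smad7 against WT, from 0.02, 0.04 and 0.09. Of all genes it called 7257 higher and 4496 lower in KO against WT, 8609 and 4492 in labelled KO+Smad7 against KO, and 9803 and 4556 in labelled KO+Smad7 against WT. The median log2 fold of the members tested was −0.22 in KO against WT, 0.29 in labelled KO+Smad7 against KO and 0.09 in labelled KO+Smad7 against WT. Normalised levels of the groups did not overlap for 17 of the 20 in KO against WT, 17 in labelled KO+Smad7 against KO and 19 in labelled KO+Smad7 against WT. Of all genes tested the groups did not overlap for 82.5%, 86.3% and 89.9% in these comparisons. At least 1 of the 3 comparisons called 17 of the 20, and all 3 called 9. The matching shares over all genes were not computed, so these counts are no result about the members. The comparisons share libraries, so the folds of a member in different comparisons are given side by side and not as separate evidence.

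**Figure D1:**
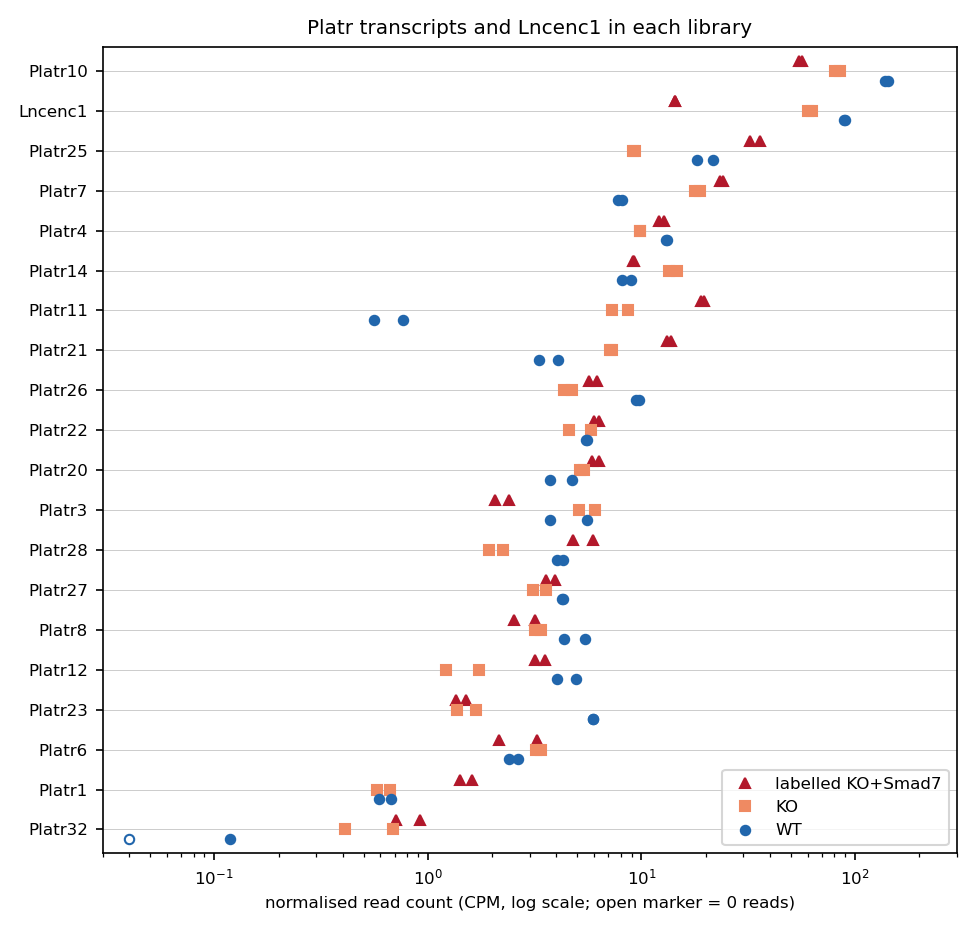
Normalised CPM (log scale) of the 20 members tested, 1 marker per library, with triangles for labelled KO+Smad7, squares for KO and circles for WT; rows are ordered by mean level, and the open marker is a library with 0 reads. Platr10 and Lncenc1 are the most abundant in WT, and Platr11 has the widest gap between groups, with 19.6 and 18.9 CPM in labelled KO+Smad7 and 0.767 and 0.559 CPM in WT.

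Lncenc1 and Platr10, the most abundant members in KO and WT, fell in KO against WT and were lower again in labelled KO+Smad7 than in KO. Lncenc1 lies on chromosome 13 at 97434970 to 97497007 (plus strand, GRCm38) as a lincRNA with 3301 bases of exon. It had 222 and 266 reads in labelled KO+Smad7, 1183 and 1197 in KO, and 1520 and 1586 in WT. The 3 groups did not overlap, and the labelled KO+Smad7 libraries stood far below the others. Normalised levels were 14.4 ± 0.044 CPM in labelled KO+Smad7, 61.6 ± 1.9 in KO and 89.2 ± 0.69 in WT (SD, n = 2 each). Its log2 fold was −0.53 in KO against WT (SE 0.050, adjusted p = 3.6e-19) and −2.10 in labelled KO+Smad7 against KO (SE 0.070, adjusted p = 3.8e-62). Against WT, labelled KO+Smad7 libraries held 0.161 times the Lncenc1 level (log2 fold −2.63).

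Platr10 is a lincRNA on chromosome 3 at 75647446 to 75655731 (minus strand) with 1745 bases of exon. It had 871 and 1006 reads in labelled KO+Smad7, 1576 and 1609 in KO, and 2416 and 2473 in WT. The groups did not overlap after scaling, with 55.3 ± 1.3 CPM in labelled KO+Smad7, 82.5 ± 3.0 in KO and 140 ± 3.0 in WT (SD, n = 2 each). Platr10 had log2 folds of −0.77 in KO against WT (SE 0.044, adjusted p = 5.3e-36), −0.58 in labelled KO+Smad7 against KO (SE 0.051, adjusted p = 4.2e-21) and −1.35 in labelled KO+Smad7 against WT. Platr10 and Lncenc1 together took 31.2% and 30.6% of the members' reads in labelled KO+Smad7, 57.4% and 58.5% in KO, and 69.3% and 67.4% in WT. Lncenc1 alone took 6.33% and 6.40% in labelled KO+Smad7, 24.6% and 24.9% in KO, and 26.8% and 26.3% in WT. The summed level of all 29 members was 226 and 225 CPM in labelled KO+Smad7, 245 and 252 in KO, and 335 and 337 in WT.

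The promoters of this pair are shown because the pair fell in both KO against WT and labelled KO+Smad7 against KO, and the sequences are RefSeq's for GRCm38.p6. Each runs from 250 bases before the start site to 50 bases after it, at chr13:97434720-97435019 (plus strand) for Lncenc1 and chr3:75655682-75655981 (minus strand) for Platr10. Capitals mark letters of 7 motifs searched on both strands, which are the octamer ATGCAAAT bound by POU factors such as Oct4, the Sox motif AACAAAG, the Klf motif GGGTGTGG, the GC box GGGCGG, the Esrrb motif TCAAGGTCA, the TATA box TATAAA and CCAAT.
Lncenc1: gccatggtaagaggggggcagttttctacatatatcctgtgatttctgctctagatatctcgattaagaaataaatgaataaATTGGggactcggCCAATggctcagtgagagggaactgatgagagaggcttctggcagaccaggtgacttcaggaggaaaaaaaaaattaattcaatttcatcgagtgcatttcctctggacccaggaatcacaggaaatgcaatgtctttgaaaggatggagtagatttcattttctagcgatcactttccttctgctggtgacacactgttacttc
Platr10: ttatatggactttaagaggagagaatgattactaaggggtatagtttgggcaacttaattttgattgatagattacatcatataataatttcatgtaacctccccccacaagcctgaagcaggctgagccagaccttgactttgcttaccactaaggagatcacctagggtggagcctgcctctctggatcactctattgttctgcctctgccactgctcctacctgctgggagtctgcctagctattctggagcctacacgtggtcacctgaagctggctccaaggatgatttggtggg
The Lncenc1 window held CCAAT on each strand, and none of the other letters searched. The Platr10 window held none of the 7.

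Platr11, Platr7 and Platr21 rose in KO against WT and were higher again in labelled KO+Smad7 than in KO. Platr11 is a lincRNA on chromosome 9 at 118404097 to 118406099 (minus strand). It had 303 and 350 reads in labelled KO+Smad7, 170 and 138 in KO, and 13 and 10 in WT. No groups overlapped, and WT stood far below the rest. The normalised level was 19.2 ± 0.44 CPM in labelled KO+Smad7, 7.96 ± 1.0 in KO and 0.663 ± 0.15 in WT (SD, n = 2 each). The rise in KO against WT was 12.0-fold (log2 fold 3.58, SE 0.23, adjusted p = 3.6e-32), and labelled KO+Smad7 was 2.41-fold above KO (log2 fold 1.27, SE 0.11, adjusted p = 1.5e-22) and 28.8-fold above WT. Per kilobase of exon Platr11 was the highest of all 29 members in labelled KO+Smad7, at 49.6 CPM per kb, with 20.5 in KO and 1.71 in WT. Platr10 had 31.7 CPM per kb in labelled KO+Smad7, 47.3 in KO and 80.5 in WT.

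The Platr11 transcript of GENCODE M21 is 388 bases long and has 4 exons of 59, 97, 165 and 67 bases. Its first 300 bases are shown because it is the member with the greatest fold, and capitals mark 2 bases on each side of the exon junctions.
Platr11: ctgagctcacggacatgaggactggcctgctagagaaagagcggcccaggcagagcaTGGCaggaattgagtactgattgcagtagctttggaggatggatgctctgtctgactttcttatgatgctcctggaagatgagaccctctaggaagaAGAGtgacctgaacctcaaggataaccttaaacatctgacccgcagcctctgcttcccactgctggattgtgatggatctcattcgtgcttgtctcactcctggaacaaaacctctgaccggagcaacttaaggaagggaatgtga
Junctions lie after bases 59 and 156 within this stretch. None of its 50-base stretches occurred in a transcript of another GENCODE gene, so reads of that length inside it would have 1 source among annotated transcripts.

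Platr7, a lincRNA on chromosome 10 at 84547417 to 84553338 (minus strand), had 363 and 448 reads in labelled KO+Smad7, 369 and 340 in KO, and 137 and 139 in WT. Raw counts of labelled KO+Smad7 and KO overlapped, and they separated once library size was taken into account. The normalised level was 23.8 ± 0.57 CPM in labelled KO+Smad7, 18.3 ± 0.66 in KO and 7.93 ± 0.22 in WT (SD, n = 2 each). Log2 folds were 1.21 in KO against WT (SE 0.10, adjusted p = 1.4e-21) and 0.38 in labelled KO+Smad7 against KO (SE 0.083, adjusted p = 2.4e-05).

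Platr21 lies on the X chromosome at 139240226 to 139357738 (minus strand) and has up to 20 exons. Platr21 had 204 and 255 reads in labelled KO+Smad7, 140 and 138 in KO, and 56 and 73 in WT. The groups did not overlap, at 13.5 ± 0.44 CPM in labelled KO+Smad7, 7.20 ± 0.085 in KO and 3.69 ± 0.55 in WT (SD, n = 2 each). Log2 folds were 0.96 in KO against WT (SE 0.16, adjusted p = 2.0e-08), 0.91 in labelled KO+Smad7 against KO (SE 0.12, adjusted p = 4.6e-12) and 1.87 in labelled KO+Smad7 against WT. Its value in KO against WT lay near the median of the 631 X-linked genes tested (0.87, with 428 higher and 67 lower). For labelled KO+Smad7 against KO the X-linked median was 0.10, with 266 higher and 215 lower (345 and 152 with library size scaling).

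Promoters are shown for Platr7 and Platr21 because both transcripts rose in KO against WT and again in labelled KO+Smad7 against KO. They lie at chr10:84553289-84553588 and chrX:139357689-139357988, both on the minus strand of GRCm38.p6 in RefSeq, with capitals as above.
Platr7: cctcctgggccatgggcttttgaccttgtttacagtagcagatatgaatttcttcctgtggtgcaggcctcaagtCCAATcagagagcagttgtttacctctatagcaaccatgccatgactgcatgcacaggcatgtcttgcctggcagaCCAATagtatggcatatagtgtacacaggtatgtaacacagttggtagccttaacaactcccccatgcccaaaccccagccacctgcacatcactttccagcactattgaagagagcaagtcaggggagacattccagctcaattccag
Platr21: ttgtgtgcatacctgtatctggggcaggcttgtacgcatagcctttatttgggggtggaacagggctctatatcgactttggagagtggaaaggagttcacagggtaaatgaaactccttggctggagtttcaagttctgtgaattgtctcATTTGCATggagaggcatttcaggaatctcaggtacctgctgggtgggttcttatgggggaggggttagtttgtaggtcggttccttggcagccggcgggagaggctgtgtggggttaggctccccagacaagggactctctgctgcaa
The Platr7 window held CCAAT at 2 places, and had no CG dinucleotide at all. The Platr21 window shown held the octamer on the opposite strand, 99 to 92 bases before the start site. This was the single octamer among the 16 member windows, and 1.74% of all 32851 RefSeq windows held it. Another RefSeq window of Platr21, at chrX:139356721-139357020 and not shown, held none of the motifs searched.

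**Figure D2:**
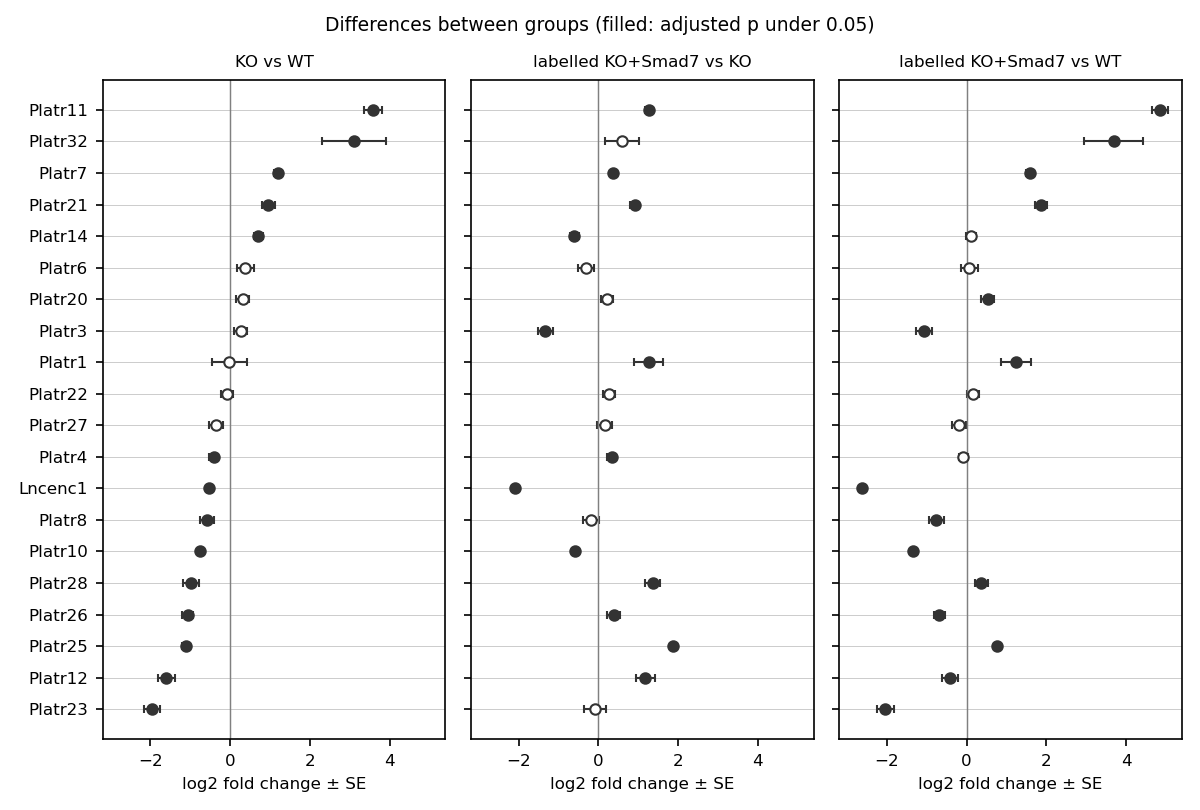
Log2 fold changes with their SE for the 20 members tested in the 3 comparisons, with filled circles for an adjusted p under 0.05 in edgeR's quasi-likelihood test and rows in the order of KO against WT. Lncenc1 has the lowest value in labelled KO+Smad7 against KO (−2.10), and Platr25 has the highest (1.88).

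Platr25, Platr28, Platr12, Platr26 and Platr4 fell in KO against WT and were higher in labelled KO+Smad7 than in KO. Platr25 lies on chromosome 13 at 62671784 to 62760709 (minus strand). GENCODE lists 10 transcripts and calls the gene protein-coding, unlike the other 28 members. It had 557 and 593 reads in labelled KO+Smad7, 182 and 174 in KO, and 307 and 387 in WT. KO stood lowest and labelled KO+Smad7 highest without overlap, at 34.0 ± 2.7 CPM, against 9.21 ± 0.090 in KO and 19.9 ± 2.5 in WT (SD, n = 2 each). Log2 folds were −1.11 in KO against WT (SE 0.10, adjusted p = 6.4e-20), 1.88 in labelled KO+Smad7 against KO (SE 0.091, adjusted p = 1.0e-42) and 0.77 in labelled KO+Smad7 against WT. Of its 50-base stretches 7.15% also occurred in transcripts of 65 other genes, so part of its reads may be split with them.

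Platr28, a lincRNA on chromosome 7, had 74 and 109 reads in labelled KO+Smad7, 38 and 43 in KO, and 68 and 77 in WT. Of its 50-base stretches 7.63% also occurred in transcripts of 124 other genes, so part of its reads may be split with them. Platr28 fell by 0.99 on the log2 scale in KO against WT (SE 0.20, adjusted p = 7.0e-06), and its log2 fold in labelled KO+Smad7 against KO was 1.36 (SE 0.19, adjusted p = 1.8e-10). Platr12, on chromosome 1, had 49 and 65 reads in labelled KO+Smad7, 24 and 33 in KO, and 68 and 88 in WT. KO was the lowest group, with log2 folds of −1.60 in KO against WT (SE 0.22, adjusted p = 5.2e-11) and 1.18 in labelled KO+Smad7 against KO (SE 0.23, adjusted p = 3.1e-06). Against WT, Platr28 in labelled KO+Smad7 stood at 0.37 (adjusted p = 0.037) and Platr12 at −0.42 (adjusted p = 0.033). Neither call held in DESeq2 (adjusted p = 0.31 and 0.17), and Platr12 was at −0.03 with library size scaling (adjusted p = 0.91). Without labelled KO+Smad7 replicate 2, WT replicate 1 or WT replicate 2, Platr28 had adjusted p = 0.38, 0.17 and 0.074. Without labelled KO+Smad7 replicate 1 or 2 or WT replicate 2, Platr12 had adjusted p = 0.14, 0.056 and 0.27.

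Platr26, a lincRNA on chromosome 2, had 88 and 114 reads in labelled KO+Smad7, 93 and 83 in KO, and 165 and 168 in WT. WT was above both other groups, with log2 folds of −1.07 in KO against WT (SE 0.14, adjusted p = 8.1e-12) and −0.69 in labelled KO+Smad7 against WT (SE 0.14, adjusted p = 2.2e-06). The difference of 0.38 between labelled KO+Smad7 and KO (SE 0.16, adjusted p = 0.021) was not called by DESeq2 (adjusted p = 0.13), without labelled KO+Smad7 replicate 2 (0.16) or without KO replicate 2 (0.15). Platr4, on chromosome 3, has a described part in mesoderm and endoderm differentiation of mouse embryonic stem cells. It had 187 and 234 reads in labelled KO+Smad7, 193 and 187 in KO, and 220 and 236 in WT. KO was lowest after scaling, at 9.84 ± 0.0029 CPM, with 12.4 ± 0.42 in labelled KO+Smad7 and 13.1 ± 0.16 in WT (SD, n = 2 each). The log2 folds were −0.41 in KO against WT (SE 0.11, adjusted p = 4.0e-04) and 0.33 in labelled KO+Smad7 against KO (SE 0.11, adjusted p = 0.0046). The call in labelled KO+Smad7 against KO was lost in DESeq2 (adjusted p = 0.066) and without labelled KO+Smad7 replicate 2 (adjusted p = 0.060).

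Platr23 and Platr8 fell in KO against WT and were not called in labelled KO+Smad7 against KO. Platr23 is a lincRNA on chromosome 1 at 136622098 to 136624650 (minus strand). It had 21 and 28 reads in labelled KO+Smad7, 33 and 26 in KO, and 101 and 106 in WT. WT stood alone, at 5.94 ± 0.021 CPM, with 1.43 ± 0.11 in labelled KO+Smad7 and 1.52 ± 0.22 in KO (SD, n = 2 each). The log2 folds were −1.96 in KO against WT (SE 0.20, adjusted p = 7.2e-17), the lowest of the 20, and −0.08 in labelled KO+Smad7 against KO (SE 0.28, adjusted p = 0.80).

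The start site of Platr23 lies 251 bp from that of Zfp281, a zinc finger transcription factor gene of the pluripotency network, and the pair runs in opposite directions. Zfp281 had 1633 and 1920 reads in labelled KO+Smad7, 1781 and 1620 in KO, and 4133 and 4127 in WT. It fell with Platr23 in KO against WT (log2 fold −1.43, SE 0.041, adjusted p = 3.1e-70). Its log2 fold in labelled KO+Smad7 against KO was 0.25 (SE 0.045, adjusted p = 3.8e-07). Platr22 starts 71310 bp from Zfp281 on its other side. It had 93 and 117 reads in labelled KO+Smad7, 90 and 110 in KO, and 93 and 99 in WT, and was called in none of the 3 comparisons (adjusted p = 0.12 to 0.62).

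The window before Zfp281 is shown because it spans the whole gap between the start sites of Platr23 and Zfp281, at chr1:136624651-136624950 (plus strand, GRCm38.p6, RefSeq), with capitals as above.
Zfp281: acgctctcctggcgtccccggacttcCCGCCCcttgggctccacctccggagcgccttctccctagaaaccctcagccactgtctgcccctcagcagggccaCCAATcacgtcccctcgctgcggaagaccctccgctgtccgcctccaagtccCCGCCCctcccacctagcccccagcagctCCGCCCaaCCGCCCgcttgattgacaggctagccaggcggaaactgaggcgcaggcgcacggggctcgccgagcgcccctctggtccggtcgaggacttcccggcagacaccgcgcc
It held the GC box at 4 places and CCAAT at 1. It had 27 CG dinucleotides and a GC content of 70.7%, against medians of 7 and 52.7% over all RefSeq windows.

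Platr8, on chromosome 2 at 109902396 to 109913319 (minus strand), had 39 and 59 reads in labelled KO+Smad7, 62 and 64 in KO, and 92 and 78 in WT. Both other groups lay below WT, with log2 folds of −0.58 in KO against WT (SE 0.18, adjusted p = 0.0024) and −0.76 in labelled KO+Smad7 against WT (SE 0.19, adjusted p = 1.4e-04). The call in KO against WT was lost in DESeq2 (adjusted p = 0.052) and without WT replicate 1 (adjusted p = 0.089), and that in labelled KO+Smad7 against WT with library size scaling (adjusted p = 0.065).

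Platr14 was the member that rose in KO against WT and was lower in labelled KO+Smad7 than in KO. It had 141 and 171 reads in labelled KO+Smad7, 262 and 278 in KO, and 138 and 160 in WT. KO stood above both other groups, at 14.0 ± 0.89 CPM, with 9.17 ± 0.11 in labelled KO+Smad7 and 8.54 ± 0.57 in WT (SD, n = 2 each). The log2 folds were 0.71 in KO against WT (SE 0.11, adjusted p = 6.5e-09) and −0.61 in labelled KO+Smad7 against KO (SE 0.11, adjusted p = 3.6e-07). In labelled KO+Smad7 against WT it was 0.10 (adjusted p = 0.45), and reached 0.49 among the alternatives, at least 1 of which called it higher.

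Platr3, a lincRNA on chromosome 2, had 37 and 38 reads in labelled KO+Smad7, 100 and 115 in KO, and 63 and 99 in WT. It was lower in labelled KO+Smad7 than in KO by 1.33 on the log2 scale (log2 fold −1.33, SE 0.19, adjusted p = 5.5e-10) and lower than in WT (−1.07, SE 0.21, adjusted p = 1.2e-06). KO and WT overlapped (0.26, adjusted p = 0.15), although KO against WT was called without WT replicate 2 (0.58, adjusted p = 0.011) and with library size scaling (0.40, adjusted p = 0.021). Platr1, on chromosome 1, had 25 and 26 reads in labelled KO+Smad7, 13 and 11 in KO, and 10 and 12 in WT. Labelled KO+Smad7 stood above the others, with log2 folds of 1.26 against KO (SE 0.36, adjusted p = 9.0e-04) and 1.24 against WT (SE 0.37, adjusted p = 0.0013). The value against WT was not called by DESeq2 (adjusted p = 0.055).

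Platr32 is annotated on chromosome 7 as a sense intronic transcript of Alpk3, an alpha kinase gene. It had 11 and 17 reads in labelled KO+Smad7, 8 and 13 in KO, and 2 and 0 in WT, the fewest of the 20 tested. Labelled KO+Smad7 and KO overlapped in raw counts but not after scaling (0.71 and 0.919 CPM against 0.408 and 0.684), and both stood above WT. The ratio of summed normalised reads was 9.47 in KO against WT (95% exact interval 2.32 to 83.3) and 14.3 in labelled KO+Smad7 against WT (3.61 to 124), covering counting error only. Platr32 did not pass the filter in the fit of KO and WT alone, and its labelled KO+Smad7 reads admitted it. Its call against WT is therefore not used as support. The fitted log2 fold in KO against WT was 3.10 (SE 0.80), and it moved to 6.32 without WT replicate 1 and 2.14 without WT replicate 2. For labelled KO+Smad7 against WT it was 3.69, and 6.90 and 2.71 without the same libraries. Alpk3 had 1030 and 1363 reads in labelled KO+Smad7, 982 and 940 in KO, and 250 and 301 in WT, and its log2 fold in KO against WT was 1.65 (SE 0.073, adjusted p = 1.9e-47). Both lie on the same strand, so reads of unspliced Alpk3 RNA cannot be told apart from Platr32.

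Platr20, Platr6, Platr27 and Platr22 were called in neither KO against WT nor labelled KO+Smad7 against KO. Platr20 had 91 and 117 reads in labelled KO+Smad7, 106 and 98 in KO, and 63 and 85 in WT. It was higher in labelled KO+Smad7 than in WT (log2 fold 0.53, SE 0.16, adjusted p = 0.0020), but not by DESeq2 (adjusted p = 0.080) or without WT replicate 1 (adjusted p = 0.093). Without WT replicate 2, KO against WT was also called for Platr20 (0.51, adjusted p = 0.029). Platr6 had 50 and 40 reads in labelled KO+Smad7, 63 and 64 in KO, and 45 and 43 in WT. Without labelled KO+Smad7 replicate 1 it was called in labelled KO+Smad7 against KO (−0.61, adjusted p = 0.030). Platr27 had 61 and 66 reads in labelled KO+Smad7, 70 and 59 in KO, and 73 and 76 in WT. Raw counts of labelled KO+Smad7 and KO overlapped for Platr20 and Platr27, while for Platr6 both KO libraries stood above the other 4. Scaling changed this order. Normalised levels of labelled KO+Smad7 lay above KO for Platr20 and, narrowly, for Platr27. For Platr6 they overlapped, at 3.23 and 2.16 CPM in labelled KO+Smad7 and 3.21 and 3.37 in KO. Without KO replicate 2, Platr22 was called in labelled KO+Smad7 against KO (0.41, adjusted p = 0.049). Scaling also decided calls of these 4. With library size scaling edgeR called Platr20 (adjusted p = 0.0095) and Platr6 (0.020) higher in KO than in WT, and Platr20 (0.0043), Platr22 (0.0018) and Platr27 (0.041) higher in labelled KO+Smad7 than in KO. With RLE factors Platr27 was called lower in KO than in WT (−0.41, adjusted p = 0.036). For labelled KO+Smad7 against WT, Platr22 stood at 0.165 and reached 0.556 among the alternatives, at least 1 of which called it higher.

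Fewer than 10 reads in at least 5 of the 6 libraries were found for 9 members, Platr5, Platr9, Platr13, Platr15, Platr16, Platr19, Platr29, Platr30 and Platr31. None of them passed the filter, and no fold is given for them. Of their 54 raw counts 2 reached 10 or more and 12 were 0. These were 12 reads of Platr9 and 10 reads of Platr29, both in labelled KO+Smad7 replicate 2, the deeper library of its group. Their summed reads were 20 and 37 in labelled KO+Smad7, 28 and 20 in KO, and 29 and 24 in WT. Platr5 had 1 and 2 reads in labelled KO+Smad7, 1 and 1 in KO, and 5 and 5 in WT. Platr16 had 2 and 3 reads in labelled KO+Smad7, 1 and 0 in KO, and 8 and 4 in WT. Without the filter, edgeR called Platr16 lower in KO than in WT (adjusted p = 0.0091, 1 read in all in KO and 12 in WT). The lowest adjusted p of the other 8 over the 3 comparisons was 0.080, for Platr5 in KO against WT. Platr13 had a single read in all 6 libraries, and Platr30 had 2 and 0 reads in labelled KO+Smad7, 1 and 0 in KO, and 0 and 0 in WT.

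**Figure D3:**
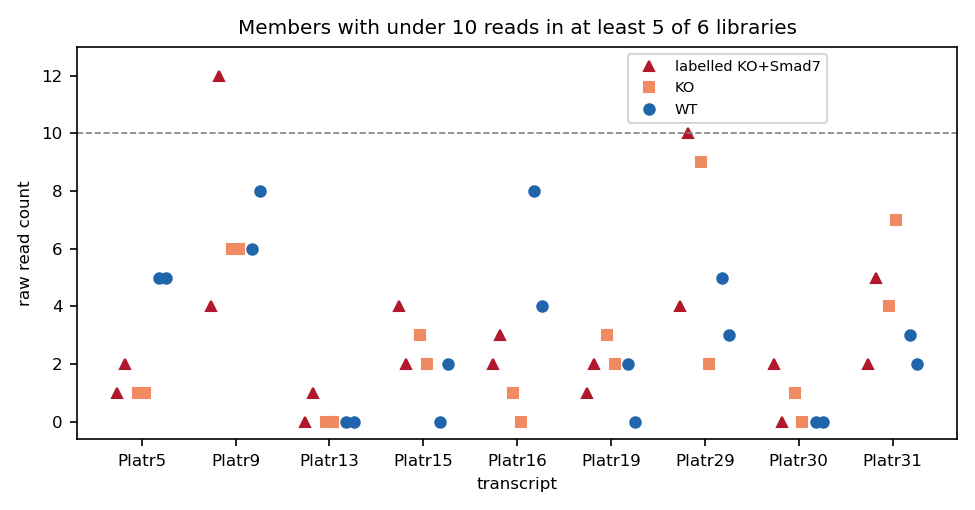
Raw read counts of the 9 members with fewer than 10 reads in at least 5 libraries, 1 marker per library, with a dashed line at 10 reads. Only Platr9 (12) and Platr29 (10) reach the line, each in 1 labelled KO+Smad7 library.

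The 29 members lie on 12 chromosomes, 7 of them on chromosome 2 and 5 on chromosome 1. GENCODE lists 20 as lincRNAs and 6 as processed transcripts, with 1 antisense, 1 sense intronic and 1 protein-coding gene. The 20 members tested had 388 to 6180 bases of exon (median 1464), and the 9 low members 375 to 2376 (median 830). Of the 9 low members, 6 had more than 5% of their 50-base stretches in transcripts of another gene, and of the 20 tested 3 had. These 3 were Platr25 (7.15%), Platr28 (7.63%) and Platr32 (9.32%). For Platr30 the share was 92.0%, and for Platr16, whose exons overlap a pseudogene on the same strand, 39.3%. The sources used here do not say how reads that fit several places were counted, so low counts of these transcripts are uncertain. Platr9 overlaps exons of the hormone gene Cga and Platr31 those of Tigar on the opposite strand, and without a stated strand setting such reads cannot be separated.

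RefSeq promoters were found for 14 of the 29 members, in 16 windows. Their GC content was 39.0% to 52.0% (median 48.0%), against a median of 52.7% over all windows, and 15 of the 16 had no more than the overall median of 7 CG dinucleotides. CCAAT stood in 8 of the 16 windows and in 37.4% of all windows. The GC box stood in 3 of 16, against 35.7% of all windows, and the Sox motif in 3 of 16, against 5.85%. The Klf motif stood in 1 of 16, that of Platr26, against 3.56%, and the TATA box in 1 of 16, that of Platr5, against 13.6%. The Esrrb motif was in none of the 16 and in 0.423% of all windows. A match of letters describes these windows and is not a binding site.

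The nearest protein-coding genes on each side were compared with the members tested. In the 16 pairs with start sites within 30 kb, member and neighbour were both called in 10 pairs in KO against WT, 9 in the same direction and 1 in the opposite. For labelled KO+Smad7 against KO both were called in 8 pairs, 1 in the same direction and 7 in opposite directions. For labelled KO+Smad7 against WT both were called in 13, 11 in the same direction and 2 in opposite ones. The same-direction pairs of both comparisons with WT include Platr32 and Alpk3. Platr32 entered the test only through its labelled KO+Smad7 reads, which cannot be told apart from unspliced Alpk3 RNA, so this pair is not used as support. With library size scaling the pairs called had 9 same and 2 opposite in KO against WT, 3 and 6 in labelled KO+Smad7 against KO, and 8 and 3 in labelled KO+Smad7 against WT. As a background, 295 pairs of 237 other lincRNAs with their protein-coding neighbours had 74 same and 26 opposite in KO against WT, 84 and 68 in labelled KO+Smad7 against KO, and 106 and 76 in labelled KO+Smad7 against WT. With library size scaling these background counts were 87 and 22, 101 and 60, and 142 and 67. In KO against WT that scaling gave 81.8% same for the members and 79.8% for the other lincRNAs. No test was made between members and these lincRNAs. Several pairs share a member, so the pairs are not independent, and at any distance the counts were 15 same and 6 opposite, 6 and 15, and 18 and 6.

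The pair called in the same direction in labelled KO+Smad7 against KO was Platr25 and Gm5141, which starts 25099 bp away, and it was so in the other 2 comparisons as well. Gm5141 had 219 and 233 reads in labelled KO+Smad7, 92 and 82 in KO, and 136 and 180 in WT. Its log2 folds were −1.01 in KO against WT (SE 0.14, adjusted p = 1.6e-10), 1.56 in labelled KO+Smad7 against KO (SE 0.13, adjusted p = 1.5e-22) and 0.55 in labelled KO+Smad7 against WT (SE 0.12, adjusted p = 6.6e-06). 6720489N17Rik, at 136527 bp on the other side, had 141 and 173 reads in labelled KO+Smad7, 66 and 76 in KO, and 110 and 114 in WT. Its log2 folds in the same comparisons were −0.81, 1.33 and 0.52. Transcripts of both neighbours hold 50-base stretches of Platr25 (127 and 152 matches), so reads from these stretches may be split among the 3 genes.

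Platr11 starts 72113 bp from Eomes, a T-box factor gene of early mesoderm and endoderm. Eomes had 94 and 115 reads in labelled KO+Smad7, 68 and 62 in KO, and 58 and 33 in WT. It was called higher in labelled KO+Smad7 than in KO (log2 fold 0.87, SE 0.17, adjusted p = 2.5e-06) and than in WT (1.23, SE 0.19, adjusted p = 1.4e-09). In KO against WT Eomes stood at 0.36 (adjusted p = 0.11), and was called higher with library size scaling (0.51, adjusted p = 0.024). Lncenc1 starts 193865 bp from Enc1, which encodes an actin-binding Kelch protein. Enc1 had 2023 and 2411 reads in labelled KO+Smad7, 2935 and 2811 in KO, and 6028 and 6087 in WT. It fell in KO against WT (log2 fold −1.23, SE 0.038, adjusted p = 9.2e-67), while its −0.19 in labelled KO+Smad7 against KO turned to 0.06 with library size scaling. Trap1a, an X-linked gene that starts inside Platr21 on the other strand, had 2687 and 3376 reads in labelled KO+Smad7, 4827 and 4693 in KO, and 2088 and 2281 in WT. It rose with Platr21 in KO against WT (log2 fold 0.98, SE 0.039, adjusted p = 1.1e-52) and was lower in labelled KO+Smad7 than in KO (−0.47, SE 0.038, adjusted p = 1.3e-23). Both rises in KO against WT lay near the X-linked median of 0.87, with 428 of 631 X-linked genes higher.

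**Figure D4:**
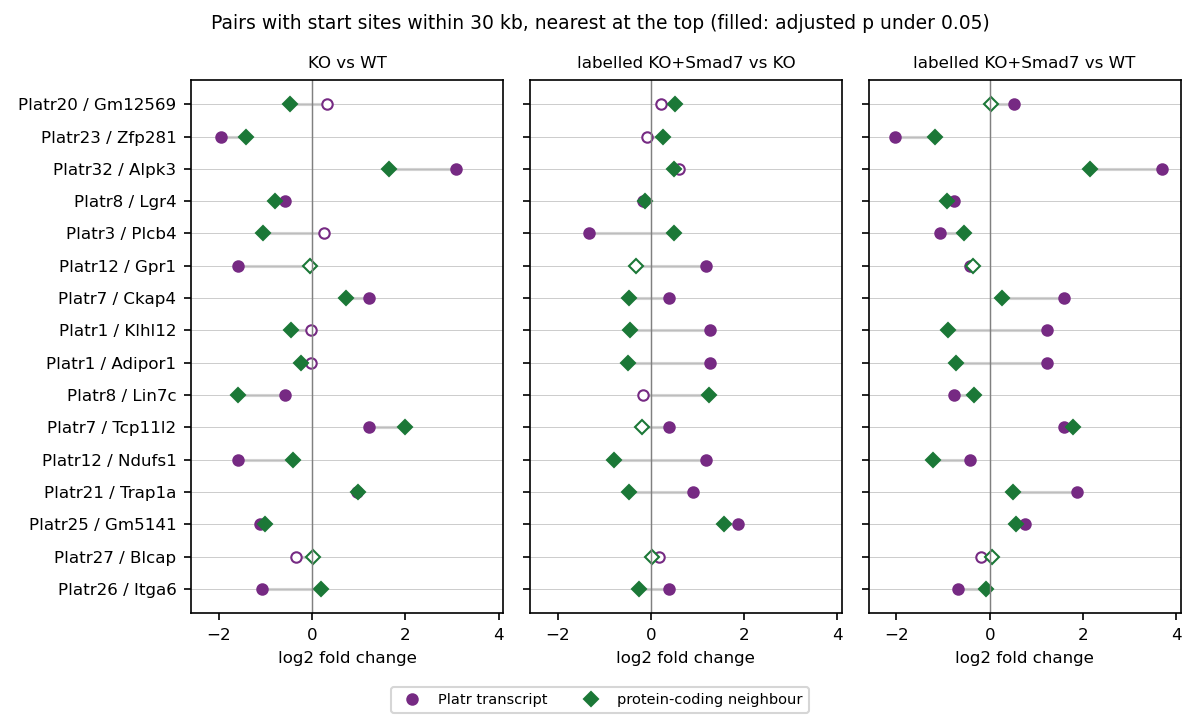
Log2 fold changes of members (purple circles) and of protein-coding neighbours with a start site within 30 kb (green diamonds), joined by a line, in the 3 comparisons, with open symbols where the adjusted p was 0.05 or more. In KO against WT 9 of 10 pairs with both called lie on the same side of 0 (9 of 11 with library size scaling), and in labelled KO+Smad7 against KO 1 of 8 (3 of 9 with library size scaling). For pairs of other lincRNAs, not drawn, these counts were 74 of 100 (87 of 109) and 84 of 152 (101 of 161). The 9 pairs of members in KO against WT include Platr32 and Alpk3, whose reads cannot be told apart from each other with certainty.

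Protein-coding genes of the pluripotency network were set beside the members from lists written with earlier results known. Of 12 core factors, 5 were higher and 6 lower in KO against WT, and 2 higher and 9 lower in labelled KO+Smad7 against KO (3 and 7 with library size scaling). Of 18 naive factors, 13 were higher and 5 lower in KO against WT (median log2 fold 0.52), and 0 higher and 16 lower in labelled KO+Smad7 against KO (median −0.62). With library size scaling the naive factors had 2 higher and 13 lower in labelled KO+Smad7 against KO. Of 11 formative and primed genes, 4 were higher and 7 lower in KO against WT, and 2 higher and 7 lower in labelled KO+Smad7 against KO (3 and 6 with library size scaling). The 20 members had 5 higher and 9 lower in KO against WT, and 9 higher and 4 lower in labelled KO+Smad7 against KO. With library size scaling these counts were 8 and 9, and 12 and 4.

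Among 484 lincRNAs of GENCODE tested, 120 were higher and 120 lower in KO against WT (median log2 fold 0.11), and 274 higher and 42 lower in labelled KO+Smad7 against KO (median 0.80). These 484 include the tested members of that biotype, so the 2 sets are not separate. The median of the 20 members in labelled KO+Smad7 against KO was 0.29. With library size scaling the medians in that comparison were 1.04 for the lincRNAs and 0.54 for the members. Of 23 other noncoding RNAs studied in embryonic stem cells 13 were tested, with 5 higher and 5 lower in KO against WT, and 10 higher and 1 lower in labelled KO+Smad7 against KO. Examples are Oip5os1, the conserved noncoding RNA also called Cyrano, with log2 folds of −0.98 in KO against WT and 1.44 in labelled KO+Smad7 against KO, and Sox2ot, which overlaps Sox2, with 2.02 in labelled KO+Smad7 against KO (SE 0.20, adjusted p = 8.0e-18). Tunar was the listed RNA that fell in labelled KO+Smad7 against KO (log2 fold −0.79, SE 0.33, adjusted p = 0.026), with 16 and 14 reads in labelled KO+Smad7 and 22 and 37 in KO. With library size scaling none of the 13 was called lower, and 12 were called higher.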

How the data were processed

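Per the labels' protocols, poly(A)-selected RNA was made into TruSeq libraries and sequenced on an Illumina instrument. The authors deposited raw read counts per gene symbol. STAR 2.7.7a0, featureCounts 1.6.3, mm10 and GRCm38 are named in the submitters' processing notes, with no role or order. Annotation release, strand setting and the treatment of reads that fit several genes were not stated in what was used here. Of the deposited columns 6 matched a group and replicate in the labels, and 2 matched no label and were not used, so cells transfected with lncSmad7 were not analysed here. Totals were 13392941 to 20209760 counts per library. Replicates differed by more than sampling noise (chi-square per degree of freedom 1.57 to 1.89), so none was taken for a second deposit.

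Genes were filtered with filterByExpr (17342 kept) and scaled with TMM factors. A fit of all 6 libraries (edgeR 4.0.16, limma 3.58.1, R 4.3.3; quasi-likelihood test, robust, 3 residual degrees of freedom) gave 3 comparisons. The Benjamini-Hochberg method adjusted p over every gene tested, with calls under 0.05. SDs are over 2 libraries. Members and gene lists were chosen with earlier results of these data known. Every member is accounted for, and other genes are named from the lists or as the nearest protein-coding gene. Positions, exon lengths, biotypes and transcripts came from GENCODE M21 (GRCm38), which placed all 29 members. Promoters came from RefSeq (GRCm38.p6). Alternatives were RLE and library size scaling, DESeq2 1.42.0, other filters, fewer libraries, a replicate block and a minimum fold.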

Additional observations from a re-analysis of the deposited data

How the results depend on the processing

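Each member tested was recomputed under every alternative, except Platr32, which did not pass the filter of at least 1 CPM in 2 libraries in any comparison or the filter of the 4-library fit of KO against WT. Without Platr32 each of these fits called 13 members in KO against WT. Of all genes these fits called 11223 of 15337 and 11468 of 15719 in that comparison. No called value that was recomputed changed sign. Values that were not called did so for Platr1 in KO against WT (0.12 with library size scaling, −0.123 to 0.082 without single libraries) and Platr22 in KO against WT (0.054 with library size scaling, −0.251 to 0.072 without single libraries). In labelled KO+Smad7 against KO they did so for Platr8 (0.069 with library size scaling) and Platr23 (0.16 with library size scaling, −0.243 to 0.056 without single libraries). In labelled KO+Smad7 against WT they did so for Platr4 (0.31 with library size scaling, adjusted p = 0.0052), Platr6 (−0.22 to 0.362 without single libraries) and Platr27 (0.20 with library size scaling). A minimum log2 fold of 1 left 7, 7 and 9 of the 20 members called in KO against WT, labelled KO+Smad7 against KO and labelled KO+Smad7 against WT. Of all genes it left 3976, 4467 and 7457 (22.9%, 25.8% and 43.0%). Platr32, admitted by its labelled KO+Smad7 reads, is among the members left in both comparisons with WT. Fits without a single library leave 1 library in a group, so no count of their calls is given. Without single libraries the log2 fold in KO against WT was 3.37 to 3.82 for Platr11, −0.79 to −0.73 for Platr10 and −0.55 to −0.50 for Lncenc1. A limit of 5 reads in place of 10 left 5 low members and a limit of 20 gave 10. The replicate block gave 14, 13 and 15 members called, as without it, and 11822 of 17342 genes in KO against WT. Deviations of same-numbered libraries had correlations of 0.0057, 0.026 and 0.0053, so the numbers were not taken to pair libraries. With 2 libraries a group, members of few reads such as Platr32 and Platr1 are the least precise.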
